A study of Homo sapiens with 4 samples.

Results

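The genes described are 10 members of the BCL2 family of apoptosis regulators, *BCL2*, *BCL2L1*, *MCL1*, *BAX*, *BAK1*, *BCL2L11*, *BBC3*, *PMAIP1*, *BIK* and *BAD*. They were taken by gene symbol, and all 10 were found among the 23287 gene symbols of the RNA-seq data, with 39 of the 41138 listed transcripts. T47D is an established line of human breast cancer cells with a high level of the progesterone receptor (PR), and R5020 is a synthetic progestin. RNA was sequenced from 1 culture treated with 10 nM R5020 for 3 h and from 1 culture treated with the vehicle, ethanol (EtOH), for 3 h, both after growth in serum stripped of steroids. PR binding sites came from 1 ChIP-seq library of cells treated with 10 nM R5020 for 1 h. There was 1 library per condition, so no difference below has a replicate check, and each compares these libraries only. Over the listed transcripts, the deposited coverage amounts to about 35151500 reads in EtOH and 36203600 in R5020. The paper reports more unique paired-end reads for both libraries, and slightly more for EtOH than for R5020. In such bulk samples fewer cells with a transcript and less of it per cell cannot be told apart.

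Proteins of the BCL2 family decide whether the outer membrane of mitochondria is opened during apoptosis. The effectors BAX and BAK form the pores through which cytochrome c is released, and the anti-apoptotic proteins BCL2, BCL-XL and MCL1 hold them in check. The BH3-only proteins are sensors of stress that bind the anti-apoptotic proteins, and some of them also engage the effectors directly. Several of these proteins, such as MCL1 and NOXA, turn over within hours, and their levels are set in part after transcription, which RNA-seq does not measure.

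Expression was given as FPKM, fragments scaled to transcript length and library size, and summed over the transcripts of a gene. Each change is the log2 ratio of R5020 to EtOH after adding 1 to both FPKM values, and this pseudocount makes changes at low FPKM look smaller than they are. A gene was retained at FPKM of 1 or more in at least 1 library and was called higher or lower at 1.5-fold on this scale. Of the luminal markers, *ESR1*, *PGR*, *GATA3*, *FOXA1* and *KRT19* had an FPKM between 17.2 and 608 in EtOH and between 10.9 and 477 in R5020. The estimates of *KRT8* and *KRT18* had failed in EtOH and were 285 and 174 in R5020. Of 9 markers of basal, leukocyte, fibroblast and endothelial cells, 1 reached an FPKM of 1, *COL1A1*, at 5.12 in EtOH and 3.31 in R5020. All 39 transcripts of the members carried a status of OK in both libraries.

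Of the 10 genes, 8 were retained. Among these, *BCL2L1*, *MCL1*, *BCL2L11* and *PMAIP1* were higher in R5020-treated cells, *BBC3* was lower, and *BAX*, *BAK1* and *BAD* changed by less than 1.5-fold. *BCL2* and *BIK* stayed below an FPKM of 1 in both libraries. Over all 11018 retained genes, 7.67% were higher and 4.14% were lower at 1.5-fold, or 11.8% in either direction, which is the background for 4 higher and 1 lower among 8. *PMAIP1* reached an FPKM of 1 only in R5020 and *BBC3* only in EtOH. With FPKM of 1 or more required in both libraries, 3 members were higher and 0 lower, against 6.47% and 2.92% of genes so retained. The median log2 ratio of the 8 was 0.34, against 0.01 over all retained genes. Genes called higher were found on both the anti-apoptotic and the pro-apoptotic side.

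**Figure D1:**
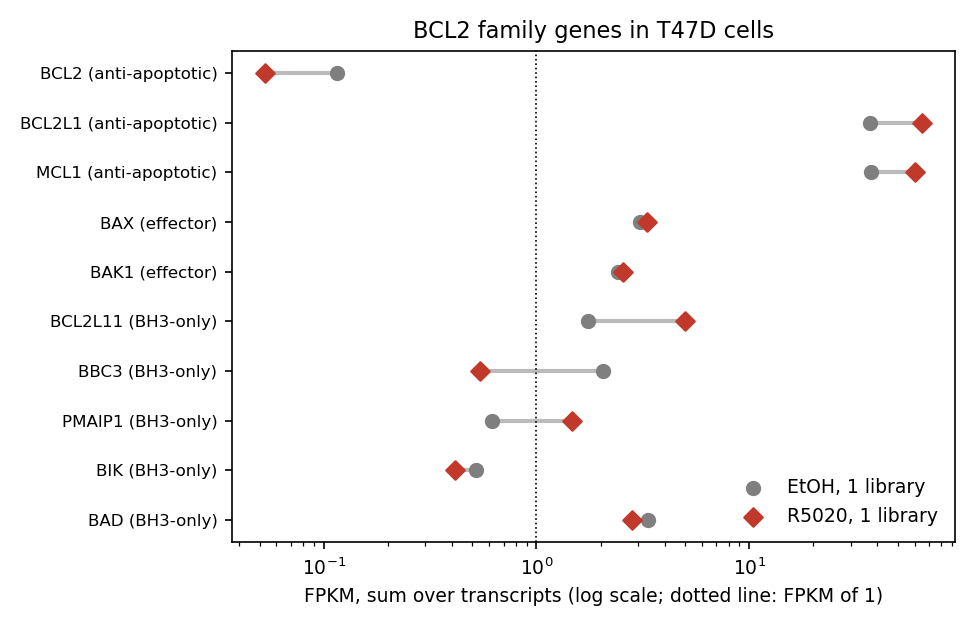
FPKM of each gene (log scale, sum over transcripts) in the EtOH library (grey circles) and the R5020 library (red diamonds), with the class of each gene in brackets. *BCL2L1* and *MCL1* lie above 36 in both libraries, while every pro-apoptotic gene lies below 5 in both.

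The anti-apoptotic genes were of very unequal level. *BCL2L1*, which encodes BCL-XL, reached an FPKM of 36.9 after EtOH and 64.8 after R5020. The R5020 library was therefore the higher one, with a log2 ratio of 0.80, and 5.01% of retained genes had a larger ratio. Its approximate read numbers, from the deposited coverage, were 8271 and 14224. The noncoding *ABALON* overlaps the start of *BCL2L1* on the opposite strand, and reads of the shared stretch cannot be told apart unless strand was used. *MCL1*, whose product binds BAK as well as BIM and NOXA, was at 37.6 under EtOH and 59.9 under R5020, a log2 ratio of 0.66. Of retained genes, 6.41% had a larger ratio than *MCL1*. By level, *BCL2L1* and *MCL1* ranked 639 and 627 among all gene symbols in EtOH, and 346 and 375 in R5020.

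*BCL2*, the founding member of the family, had an FPKM of only 0.116 under EtOH and 0.0529 under R5020. These values rest on about 23.2 and 8.21 reads, so *BCL2* was hardly detected in either library. Its log2 ratio was −0.08 with the pseudocount and −1.13 without it, and at this level no change is called.

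Of the effectors, *BAX* was measured at 3.08 under EtOH and 3.31 under R5020, a log2 ratio of 0.08. *BAK1* was measured at 2.42 and 2.56, a log2 ratio of 0.06. Neither effector reached the 1.5-fold threshold, and without the pseudocount their ratios were 1.07 and 1.06. Reads that map to several places were discarded by the authors, and *BAK1* has the annotated pseudogene copies *BAK1P1* and *BAK1P2*, which are not listed among the genes.

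The BH3-only genes went in different directions. *BCL2L11* encodes BIM, which binds all the main anti-apoptotic proteins, and its FPKM was 1.75 after EtOH and 4.99 after R5020. Its log2 ratio of 1.13 was the largest of the 10 genes, with 2.77% of retained genes above it, and the ratio of the FPKM values themselves was 2.86. The approximate read numbers were 823 and 2354. *PMAIP1* encodes NOXA, which binds mainly MCL1, and was at 0.618 in EtOH and 1.47 in R5020. Its log2 ratio of 0.61, or 1.53-fold, was just past the threshold, and about 112 and 265 reads stood behind it.

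*BBC3* encodes PUMA, which binds all the main anti-apoptotic proteins. Its FPKM was 2.06 after EtOH and 0.541 after R5020, from about 368 and 88.0 reads, and the intervals given by Cufflinks were 1.55 to 2.56 and 0.255 to 0.796. It was the only one of the 10 genes called lower, with a log2 ratio of −0.99, and only 1.37% of retained genes had a lower ratio. Without the pseudocount its FPKM was 3.80 times as high in EtOH as in R5020.

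*BAD*, whose product is controlled by phosphorylation downstream of growth factors, was at 3.34 with EtOH and 2.81 with R5020, a log2 ratio of −0.19. *BAD* shares its locus with *GPR137*, which lies on the opposite strand and was at 6.08 and 4.82, and reads of the shared stretch cannot be told apart unless strand was used in the estimate. *BIK*, at 0.518 with EtOH and 0.414 with R5020 (log2 ratio −0.10), was not retained.

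**Figure D2:**
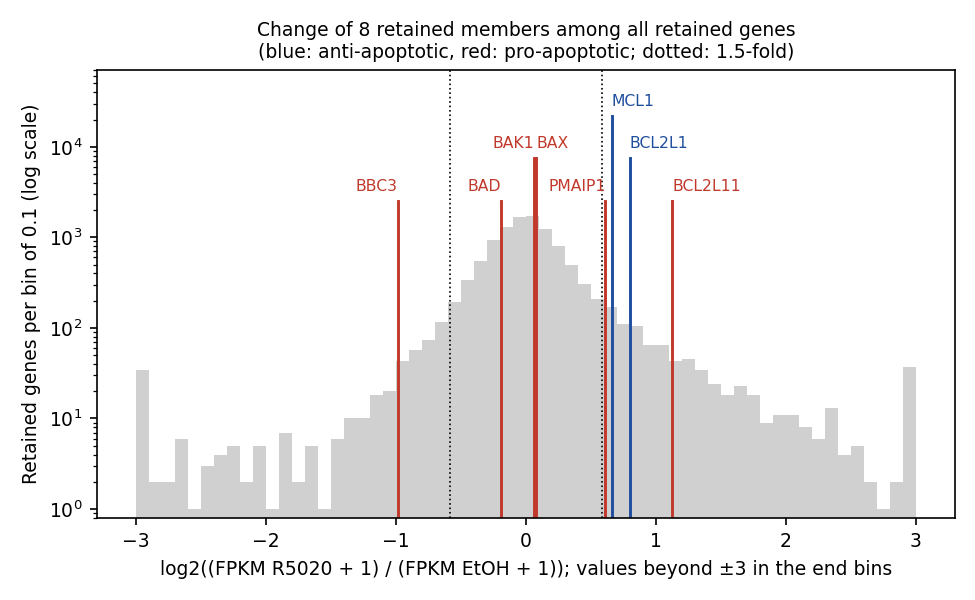
Histogram of the log2 ratio of R5020 to EtOH (with a pseudocount of 1) over the 11018 retained genes, on a log count axis, with the 8 retained family genes as vertical lines of arbitrary height. *BBC3* lies left of the lower dotted 1.5-fold line, 4 genes lie right of the upper one, and *BAD*, *BAK1* and *BAX* lie between them.

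In FPKM, the sum of the anti-apoptotic genes exceeded that of the pro-apoptotic ones in both libraries, although *BCL2* alone was below every pro-apoptotic gene. The 3 anti-apoptotic genes summed to 74.5 in EtOH and 124.8 in R5020, and the 7 pro-apoptotic genes to 13.8 and 16.1. The anti-apoptotic sum was thus 1.67 times as high in R5020 and the pro-apoptotic sum 1.17 times as high. The ratio of the anti-apoptotic to the pro-apoptotic sum was 5.41 in EtOH and 7.75 in R5020, a change of 1.43 times (0.52 on the log2 scale), which is short of the 1.5-fold threshold. Without *BCL2L11* among the pro-apoptotic genes, a choice made after its values were seen, this log2 change was 0.86. Without *MCL1* it was 0.59, without *BCL2L1* 0.45 and without *BIK* 0.50. *BAD* and *BAK1*, 24.3% and 17.6% of the pro-apoptotic sum in EtOH, had FPKM values above their own Cufflinks intervals in both libraries. The levels of this sum are uncertain to that extent. With the midpoint of the interval for every gene the log2 change was 0.48. A sum of FPKM follows its most abundant genes. *BCL2L1* and *MCL1* made up 49.5% and 50.4% of the anti-apoptotic sum in EtOH, and 51.9% and 48.0% in R5020, while *BCL2* made up 0.155% and 0.0424%. These are levels of RNA, which say nothing of the levels of the proteins.

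Within the pro-apoptotic sum, the effectors moved little and the BH3-only genes changed places. *BAX* and *BAK1* together were at 5.50 in EtOH and 5.87 in R5020, and the 5 BH3-only genes at 8.28 and 10.2. *BAD* held the largest share of the BH3-only sum in EtOH, 40.4%, and *BCL2L11* the largest in R5020, 48.8%. In EtOH the FPKM of *BAD*, 3.34, lay above its own Cufflinks interval, 0.944 to 1.83. All of that interval is below the 2.06 of *BBC3*, so the lead of *BAD* is uncertain. The share of *BCL2L11* in EtOH was 21.1%, and that of *BAD* in R5020 was 27.5%. The share of *BBC3* went from 24.8% to 5.29% and that of *PMAIP1* from 7.46% to 14.4%, so *BBC3* ranked above *PMAIP1* in EtOH and below it in R5020.

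**Figure D3:**
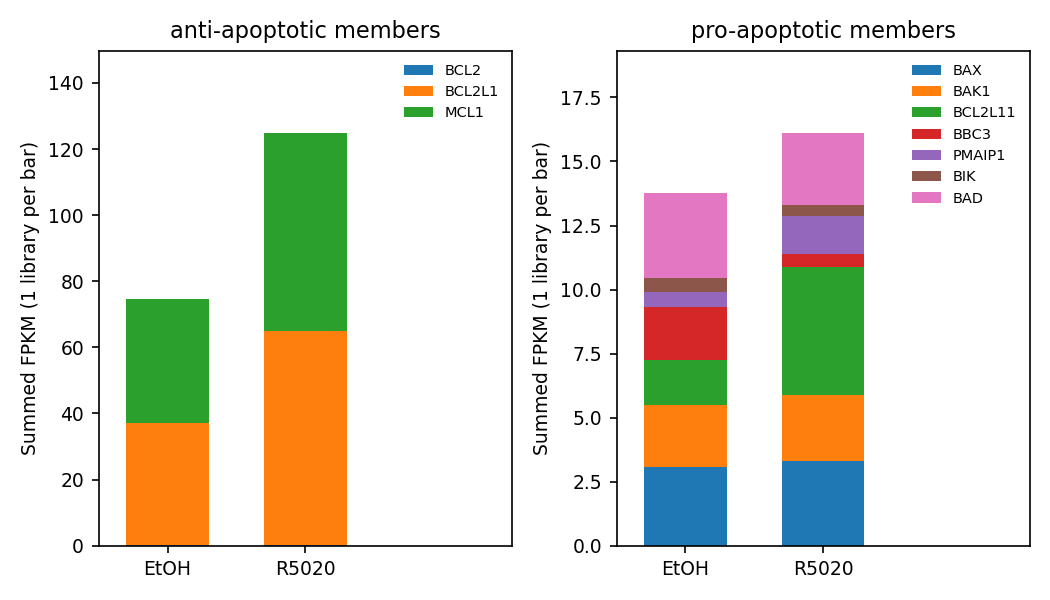
FPKM of the anti-apoptotic genes (left) and of the pro-apoptotic genes (right) stacked for the EtOH and the R5020 library, with a linear axis from 0 in each panel and a different scale in the panels. The left bars reach 74.5 and 124.8 and the right bars 13.8 and 16.1, with *BCL2* too low to be seen.

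At the level of transcripts, 16 of the 39 listed transcripts were above 0 in at least 1 library and 10 were retained. Of the 10, 5 were higher and 1 was lower at 1.5-fold. Over all 13625 retained transcripts 11.3% were higher and 8.34% lower, or 19.7% in either direction. The FPKM intervals that Cufflinks gives within a library did not overlap for 7 of the 10, against 48.2% of all retained transcripts, so a gap between these intervals was common and is no sign of a change by itself. For *BAD* and *BAK1* the deposited FPKM lay outside its own interval in both libraries.

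For *BCL2L1* the whole FPKM was assigned to NM_138578, the transcript of the long form BCL-XL. The transcript of the short, pro-apoptotic form BCL-XS, NM_001191, was listed at 0 in both libraries. For *MCL1*, NM_021960, which encodes the full-length protein, went from 16.4 to 26.5, and NM_001197320 from 21.1 to 33.4. NM_182763, a short form, was listed at 0 in both. Both detected *MCL1* transcripts were higher in R5020, with log2 ratios of 0.66 and 0.64, and NM_001197320 took 56.3% of the gene in EtOH and 55.8% in R5020. The split between the *MCL1* transcripts was thus nearly the same in both libraries. It is an estimate of Cufflinks. The anti-apoptotic sum counts both transcripts, not only that of the full-length protein.

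*BCL2L11* has 18 listed transcripts from 1 start, of which 4 were above 0 in EtOH and 2 in R5020. NM_138621, which encodes the extra long form BIM-EL, went from 0.608 to 3.80, a log2 ratio of 1.58. NM_138626 went from 0.549 to 1.19, a log2 ratio of 0.50. NM_138625, at 0.355 in EtOH, and NM_207003, at 0.233, were listed at 0 in R5020. The share of NM_138621 in the gene was 34.8% in EtOH and 76.1% in R5020. These transcripts share most of their exons, so the split between them is an estimate of Cufflinks, and the sum is the firmer value.

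*BBC3* was detected only through NM_014417, which has its own start, and its 3 transcripts from a start farther upstream were listed at 0 in both libraries. *BAX* was assigned mainly to NM_004324, the beta form, at 2.65 in EtOH and 2.90 in R5020, with 0.430 and 0.407 for NM_138761, the alpha form. The remaining 3 *BAX* transcripts were listed at 0. All the listed *BAX* transcripts have the same start, and the split between them is likewise an estimate of Cufflinks. *BAD* was read only from NM_032989, while *BAK1*, *PMAIP1* and *BIK* have 1 listed transcript each.

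**Figure D4:**
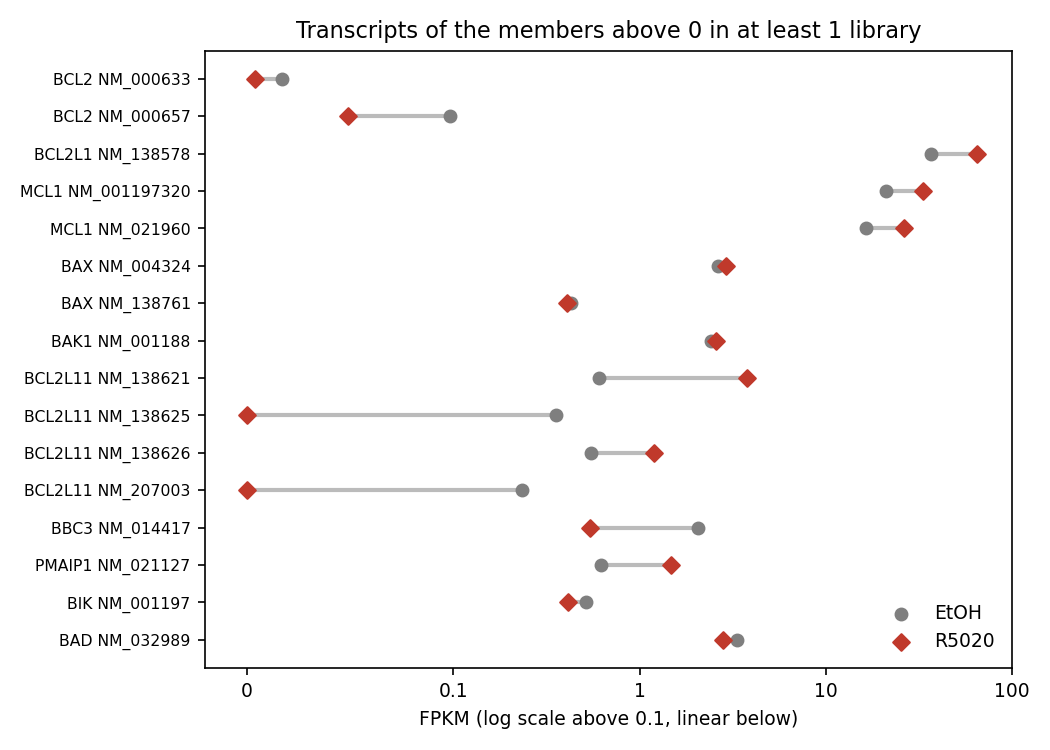
FPKM of the 16 transcripts above 0 in at least 1 library, by gene and RefSeq identifier, in EtOH (grey circles) and R5020 (red diamonds), on an axis that is linear below 0.1 and logarithmic above. Both *MCL1* transcripts lie to the right in R5020, and within *BCL2L11* NM_138621 is higher while NM_138625 and NM_207003 are at 0 in R5020.

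PR binding sites were searched in and within 50 kb of each gene on hg19. Each site carries a score, the −log10 of its MACS p-value multiplied by 10, which was 50 or more for all 11181 sites, with a median of 74.5. In all, 23 sites lay near 5 of the 10 genes, *BCL2*, *BCL2L1*, *MCL1*, *BBC3* and *BAD*. Among the 8 retained genes 4 had a site, and over all retained genes 52.7% had one, so the share was near the background. Of the 5 genes called higher or lower, *BCL2L1*, *MCL1* and *BBC3* had a site. Over all genes, 61.4% of those called higher and 61% of those called lower had one.

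*MCL1* (chromosome 1, 150547027 to 150552214, minus strand) had 4 sites, all past its 3′ end. The nearest lay 3.05 kb from the gene with a score of 53.2 and the next 6.06 kb away with a score of 124. The third, 12.8 kb away, had a score of 394, rank 85 of all 11181 sites and the highest near any of the genes. The farthest, 18.3 kb away within *ADAMTSL4*, scored 74.3. GENCODE extends *MCL1* as far as 150533371 through transcripts longer than those listed in the files, and the 3 nearest sites overlap or lie within these models. The site with a score of 394 overlaps exons of the noncoding *ADAMTSL4-AS1* and the first bases of it an exon of such a long *MCL1* transcript. The FPKM of *ADAMTSL4*, which ends close to it, was 0.935 with EtOH and 0.607 with R5020.

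*BCL2L1* (chromosome 20, 30252261 to 30310656, minus strand) had 5 sites. One straddled the start of the listed transcripts, with its middle at −78 bp from it, and scored 70.8. Of the other sites that touch the gene, one lay in the 3′ untranslated region with a score of 51.1, and one straddled the 3′ end with a score of 175, rank 307. The remaining pair lay 25.9 kb and 26.1 kb past the 3′ end with scores of 66.6 and 79.8, at the start of *COX4I2*, which was listed at 0 in both libraries.

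*BBC3* (chromosome 19, 47724079 to 47736023, minus strand) had 3 sites. One, with a score of 76.8, lay inside the gene 2.52 kb past the start of NM_014417, mostly in an intron but also over coding and untranslated parts of an exon. The others lay 7.22 kb and 23.8 kb upstream of the gene with scores of 87.1 and 78.9, the latter near the start of *CCDC9*. *BCL2* (chromosome 18, 60790579 to 60986613) had 1 site, 34.3 kb past its 3′ end, with a score of 64.7.

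*BAD* (chromosome 11, 64037300 to 64052176) had 10 sites, with scores from 50.5 to 128, in a stretch dense with genes. For each of the 10 another protein-coding gene started nearer than *BAD* did, and *BAD* was not called changed. Across all 23 sites, the nearest protein-coding start was that of the family gene for 6.

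No site lay within 50 kb of *BCL2L11* (chromosome 2, 111878491 to 111926022), *PMAIP1* (chromosome 18, 57567192 to 57571538), *BAX*, *BAK1* or *BIK*. The nearest site was 254 kb from *BCL2L11* and 403 kb from *PMAIP1*, the 2 BH3-only genes called higher. It was 188 kb from *BAX*, 54.0 kb from *BAK1* and 53.7 kb from *BIK*. Within 100 kb, *BAK1* had 1 site and *BIK* 9.

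**Figure D5:**
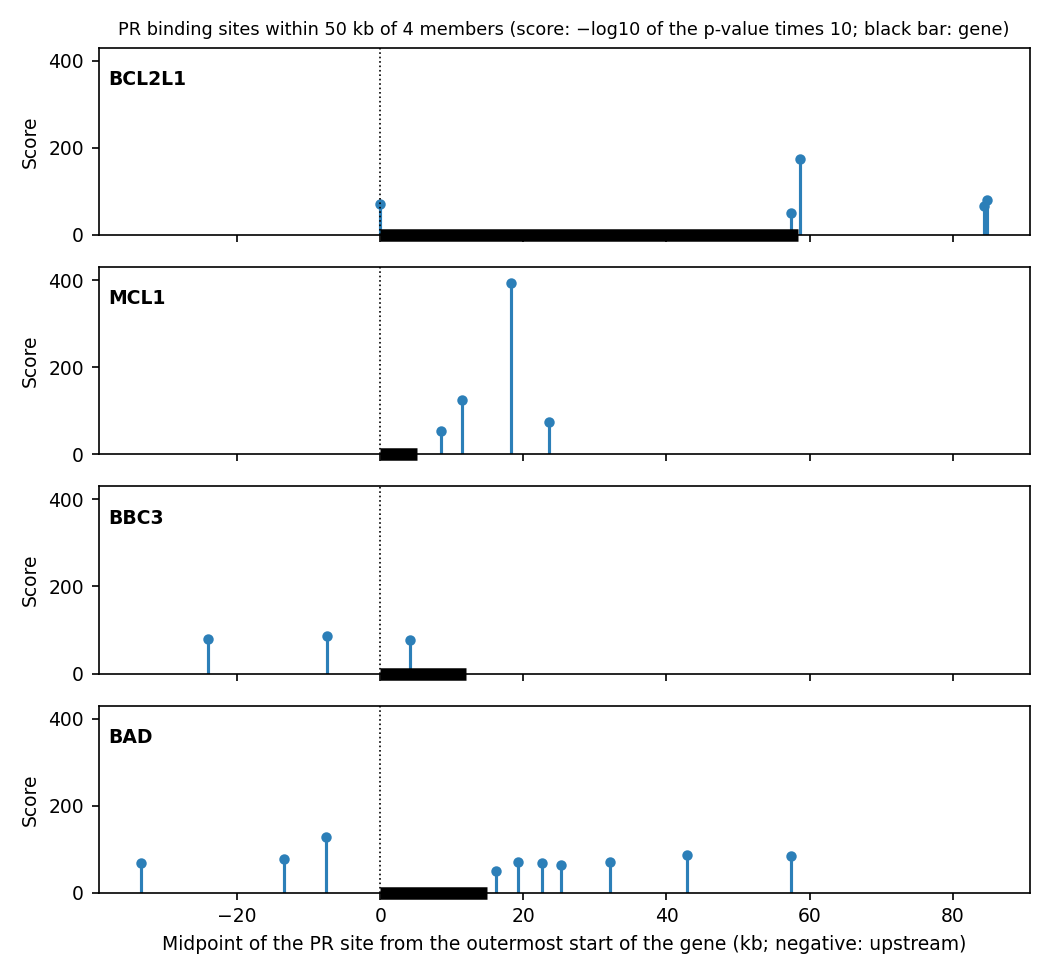
PR binding sites within 50 kb of *BCL2L1*, *MCL1*, *BBC3* and *BAD*, by the distance of their middle from the outermost start of the gene in kb (negative values upstream) and by their score, with the gene as a black bar. The sites of *MCL1* all lie past its 3′ end and include the one at 394, and 1 site of *BCL2L1* lies at its start.

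The sites were searched on both strands for a palindrome with the shape of a full progesterone response element, GNACA and TGTNC with any 3 bases between them, and for the half-site TGTTCT. The palindrome was found in 1 of the 23 sites, against 2.40% of all sites and 0.823% of windows of the same length 5 kb away. The half-site was in 5 of the 23, against 25.2% of all sites and 27.4% of the windows. The 1 palindrome was in the *MCL1* site with a score of 124, on chromosome 1 from 150540719 to 150540731, and a half-site lies in the same site. A match is a description of the letters only.

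The sequences below show this site, the strongest *MCL1* site, the stretch past the 3′ end of the gene in the strongest *BCL2L1* site, and the intronic stretch of the site inside *BBC3*, the gene called lower. They are 300 bases each, from the plus strand of GRCh37, and capitals mark the palindrome and the half-site, in either orientation.
MCL1 site with a score of 124, chr1:150540644-150540943: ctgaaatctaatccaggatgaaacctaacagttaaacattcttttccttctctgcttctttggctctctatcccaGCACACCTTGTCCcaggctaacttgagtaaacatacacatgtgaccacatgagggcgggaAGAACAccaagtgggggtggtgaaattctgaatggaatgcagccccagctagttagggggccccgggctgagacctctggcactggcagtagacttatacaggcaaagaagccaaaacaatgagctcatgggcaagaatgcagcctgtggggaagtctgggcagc
MCL1 site with a score of 394, chr1:150533790-150534089: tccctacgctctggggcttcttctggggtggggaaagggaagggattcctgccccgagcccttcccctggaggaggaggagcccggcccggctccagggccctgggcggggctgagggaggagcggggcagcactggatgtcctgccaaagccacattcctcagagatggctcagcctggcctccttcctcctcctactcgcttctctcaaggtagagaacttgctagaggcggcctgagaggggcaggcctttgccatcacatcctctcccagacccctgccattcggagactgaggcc
BCL2L1 site with a score of 175, chr20:30251873-30252172: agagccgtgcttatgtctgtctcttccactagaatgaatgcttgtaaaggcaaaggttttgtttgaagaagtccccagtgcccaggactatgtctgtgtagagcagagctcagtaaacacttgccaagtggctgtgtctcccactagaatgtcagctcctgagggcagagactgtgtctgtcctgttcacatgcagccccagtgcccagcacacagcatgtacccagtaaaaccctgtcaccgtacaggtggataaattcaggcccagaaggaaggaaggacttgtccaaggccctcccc
BBC3 site with a score of 76.8, chr19:47731784-47732083: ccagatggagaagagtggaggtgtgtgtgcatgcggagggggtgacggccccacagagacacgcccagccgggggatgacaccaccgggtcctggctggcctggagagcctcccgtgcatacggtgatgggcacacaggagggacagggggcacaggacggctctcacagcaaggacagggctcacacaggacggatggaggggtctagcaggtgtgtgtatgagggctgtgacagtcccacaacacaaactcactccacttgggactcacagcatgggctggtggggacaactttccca
The stretches from the other sites hold neither motif. Their GC content was 65.0%, 51.7% and 62.7%, and that of the first 50.3%.

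Other genes of the pathway were taken from a list of 55 genes, all found in the data, of which 44 were retained. Of these, 6 were higher and 3 were lower, beside the 7.67% and 4.14% of all retained genes, and their median log2 ratio was 0.10. Of the rest of the family, *BNIP3*, a BH3-like protein of mitochondria linked to mitophagy, went from 10.1 to 25.1 (log2 ratio 1.23). *BCL2L13*, another mitochondrial family protein, went from 6.29 to 11.9 (0.83), and *BCL2L12* from 8.79 to 4.96 (−0.72). *BCL2L2*, the anti-apoptotic BCL-W, was at 4.68 in EtOH and 2.94 in R5020 (−0.53), which is short of 1.5-fold with the pseudocount of 1 and past it, as lower, with a pseudocount of 0.1 or none. Of the pro-apoptotic genes, *BOK* was at 1.86 and 1.76, *BID* at 4.17 and 4.26 and *BMF* at 1.45 and 1.80. *HRK* was at 0.143 and 0.153, *BCL2A1* at 0 and 0.0140, and *BCL2L10* was listed at 0 in both.

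Of 15 genes of mitochondrial release and of caspases, 12 were retained, among them cytochrome c, *APAF1*, caspases and the VDAC channels. None of the 12 was past 1.5-fold with the pseudocount of 1, and neither was any of the 5 retained inhibitors of apoptosis. Of all retained genes 11.8% were past it in either direction, so lists this short would hold few such genes in any case. *VDAC1*, a channel of the outer mitochondrial membrane named here after its values were seen, was just under the threshold, at 42.0 in EtOH and 63.4 in R5020 (log2 ratio 0.58), and was past it, as higher, with a pseudocount of 0.1 or none.

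Of 19 retained regulators of the family, 4 were higher and 2 lower, beside 7.67% and 4.14% of all retained genes. *FOXO1*, a transcription factor known to activate *BCL2L11*, went from 1.12 to 5.01. *PIM2*, a kinase that phosphorylates BAD, went from 2.62 to 13.7 (log2 ratio 2.02), and the related *PIM3* from 10.1 to 6.41 (−0.59). *BAG3*, a co-chaperone, went from 8.97 to 20.3 (1.10) and *E2F1* from 3.61 to 6.45 (0.69). *TP73*, a transcription factor, went from 2.12 to 1.08 (−0.59). Both *PIM3* (−0.587) and *TP73* (−0.586) were only just past 1.5-fold, which is 0.585 on the log2 scale.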

How the data were processed

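The processed data of 3 libraries of T47D cells were analysed, 1 RNA-seq library after R5020, 1 after EtOH and 1 PR ChIP-seq library after R5020. The input DNA library entered only as the control that the authors used for the ChIP-seq sites. The authors mapped the RNA-seq reads with TopHat (hg19), left out those that map to several places, and deposited the Cufflinks FPKM of each RefSeq transcript with its interval, status and coverage. FPKM values are not counts, and no count test was run. Approximate read numbers were taken as the deposited coverage times the number of bases in the transcript, over reads of 50 nt. This coverage was used in 1 alternative. For ChIP-seq the authors aligned reads with Bowtie, called sites with MACS against input and deposited for each site a score, 10 times the −log10 of its p-value.

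Gene values are sums of FPKM over transcripts, with a pseudocount of 1. A gene entered the comparison if either library reached an FPKM of 1, and it was called at 1.5-fold. With 1 library per condition there was no test, no p-value and no replicate to leave out. Results in the alternatives were compared by their side of the 1.5-fold threshold, and counts by whether they stayed within 1.5 times. Sites were tied to a gene within 50 kb of the extent of its listed transcripts and annotated with GENCODE (release 44, lifted to GRCh37, the same build), and the GRCh37 genome gave the sequences. Motifs were searched in 11178 of the 11181 sites, those on placed chromosomes. All 10 members, all their transcripts and every site within 50 kb are named or counted. Of the other pathway genes, those past 1.5-fold and 7 further family members are named by rule, and *VDAC1* besides. A further result is not reported here. The members and the lists were chosen with earlier results of these data known. The fold calls and the distance search were tested on simulated data. The tools were samtools 1.23.1, matplotlib 3.10.9, numpy 2.4.6, pandas 2.3.3 and Python 3.11.15.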

Additional observations from a re-analysis of the deposited data

How the results depend on the processing

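The members were compared under 9 other settings of the expression values, the one with coverage in place of FPKM chosen after seeing the data. No log2 ratio of a called member changed sign under them, but most of these settings could not change a sign. A pseudocount, a filter or a fold threshold leaves the sign as it is, and rescaling divided R5020 by only 1.008. At a threshold of 2-fold, which 3.43% of retained genes passed upward and 1.31% downward, 1 member was higher and 0 were lower, 1 of their transcripts was higher and 0 lower, and 0 other pathway genes were lower. With FPKM of 1 or more in both libraries, 3 members were higher and 0 lower, against 6.47% and 2.92% of genes so retained. Of their transcripts, 3 were higher and 0 lower. This filter leaves out the lower transcript of *BBC3* and, of the higher ones, that of *PMAIP1* and NM_138621 of *BCL2L11*, the one with the largest log2 ratio. The share over all transcripts was not computed at this filter or at 2-fold. With a pseudocount of 0.1 and with none, 7 other pathway genes were higher, *VDAC1* being added, and 4 were lower, *BCL2L2* being added. The shares of all retained genes rose too, to 9.91% higher and 7.14% lower at 0.1, and 10.2% and 7.67% with none. With the midpoint of the FPKM interval, 1 other pathway gene was lower, against 3.44% of genes so retained. *PMAIP1* was then short of 1.5-fold at a log2 ratio of 0.53. The change in the ratio of the anti-apoptotic to the pro-apoptotic sum, 0.52 on the log2 scale, passed 1.5-fold without *MCL1* (0.59) and without *BCL2L11* (0.86), and was 0.45 without *BCL2L1* and 0.50 without *BIK*, the settings without *BCL2L11* and *BCL2L1* being chosen after seeing the data. It was lowest, at 0.37, with the mean of log2(FPKM + 1) over genes. With a score of 100 or more, 3 members, all retained, had a PR site, against 18.1% of retained genes, and the half-site was in 5 sites in place of 1 for the palindrome. The values of *BCL2* and *BIK* rest on fewer than 50 reads in each library. No paired analysis was possible because there is 1 library per condition, and for the same reason no replicate was left out.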
